A study of Nicotiana tabacum with 21 samples.

Results

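Carriers that move auxin across inner membranes of the cell and ABCB transporters were followed in cultured tobacco cells. The 50 transcripts were those listed by the study as endomembrane auxin transporters, 27 in number, or as ABCB transporters, 23 in number, matched by transcript ID among the 69491 transcripts quantified in each library. The endomembrane list held 18 PILS and 9 PIN transcripts. The lists are described apart.

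PILS (PIN-LIKES) proteins and the short-loop PIN proteins, such as PIN5 and PIN8, reside in the endoplasmic reticulum, where they move auxin between the cytosol and the reticulum and so alter how much auxin reaches the nucleus. ABCB proteins are ATP-driven transporters of the plasma membrane, and in Arabidopsis thaliana ABCB1 and ABCB19 export auxin, whereas ABCB4 and ABCB21 can work in either direction depending on the auxin concentration. In suspension cells such carriers help to set, together with the PIN efflux and the AUX1/LAX influx carriers, how much auxin is kept inside the cell. Tobacco is an allotetraploid, so most of these genes exist as a copy closest to Nicotiana sylvestris (ending S) and a copy closest to Nicotiana tomentosiformis (ending T). Names follow the nearest Arabidopsis homologue. Where several transcripts share a name, the scaffold and gene number of the transcript ID is given in brackets.

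RNA was compared between auxin-habituated lines, which proliferate in medium without auxin, and the auxin-dependent lines they are paired with. The 7 groups of 3 libraries each were BY-2H in stationary (10 days old) and exponential (3 days old) phase, without auxin, BY-2 in stationary phase, with auxin, VBI-2 in both phases at the same ages, without auxin, and VBI-0 in both phases at the same ages, with 2,4-D and NAA. BY-2H and BY-2 belong to cultivar Bright Yellow 2 and VBI-2 and VBI-0 to Virginia Bright Italia. Stationary BY-2 cells were 10 days old by the series description and 7 days old by the methods of the study. All groups were untreated suspension cultures grown in the dark, and each line effect is a difference between 2 cell lines.

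Estimated reads per library lay between 10595226 and 13755473 in BY-2H, between 11364447 and 13111763 in BY-2, between 10545447 and 17950005 in VBI-2 and between 12001963 and 22564711 in VBI-0. BY-2H libraries were made by another company and read as longer pairs, whereas all others were short single reads. Line, supplied auxin, company and read type therefore cannot be told apart in BY-2H against BY-2. By the methods of the study, culture age differed there too. In VBI-2 against VBI-0, line and supplied auxin cannot be told apart either. BY-2 libraries also differed more among themselves: chi-squared per degree of freedom between replicates was 28.6 to 31.6 in BY-2 and 2.03 to 8.09 in the other groups. The labels call the replicates biological and say no more of them, so p-values measure the spread between these libraries.

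Levels are given as TPM, a relative abundance that sums to the same total in each library, is corrected for transcript length and so can be set side by side for different genes. Differences are log2 fold changes ± SE from edgeR's quasi-likelihood test on estimated reads, with Benjamini-Hochberg adjustment over all transcripts tested and the SE taken as the absolute log2 fold change over the square root of the F statistic. Transcripts with a mean TPM above 0.5 in some group were tested, and a call required an adjusted p no higher than 0.05 together with a log2 fold change of 1 or more in either direction. NtPIN5S, PILS1 (0000235g0110), NtABCB2T (0000127g0140) and NtABCB9aT (0000982g0090) passed this filter through VBI-2 alone. PILS2 (0006134g0040), PILS2 (0007384g0050), PILS3 (0000304g0030) and NtABCB9aT (0000982g0060) passed it through BY-2H alone. The filter thus selected these members for high values there, and calls of them as higher there rest in part on that selection. In BY-2H against BY-2 the fitted scale and the TPM scale are offset: over all tested transcripts the median was −0.06 in the fit and 0.23 on log2(TPM + 0.5). RNA of a whole culture was measured, so fewer cells with a transcript and less of it per cell cannot be told apart.

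Of the 27 endomembrane transcripts, 18 passed the filter, 17 of them PILS and 1 PIN. PILS transcripts made up nearly all of the summed level. The sum over the list was 84.6 ± 1.79 TPM in stationary BY-2H and 105 ± 2.91 TPM in the exponential phase, against 189 ± 54.0 TPM in BY-2 (SD, n = 3 each). It was 235 ± 11.9 TPM in stationary VBI-2, against 152 ± 15.4 TPM in stationary VBI-0, and 230 ± 18.8 TPM in exponential VBI-2, against 187 ± 13.1 TPM in exponential VBI-0. The libraries of each line pair did not overlap in this sum: BY-2H was below BY-2, and VBI-2 was above VBI-0. NtPILS6aT was the most abundant member in BY-2H and BY-2, taking 16.6% of the sum in stationary BY-2H, against 26.8% in BY-2. NtPILS5aT led in both VBI lines, with 24.1% in stationary VBI-2 and 27.8% in stationary VBI-0.

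**Figure D1:**
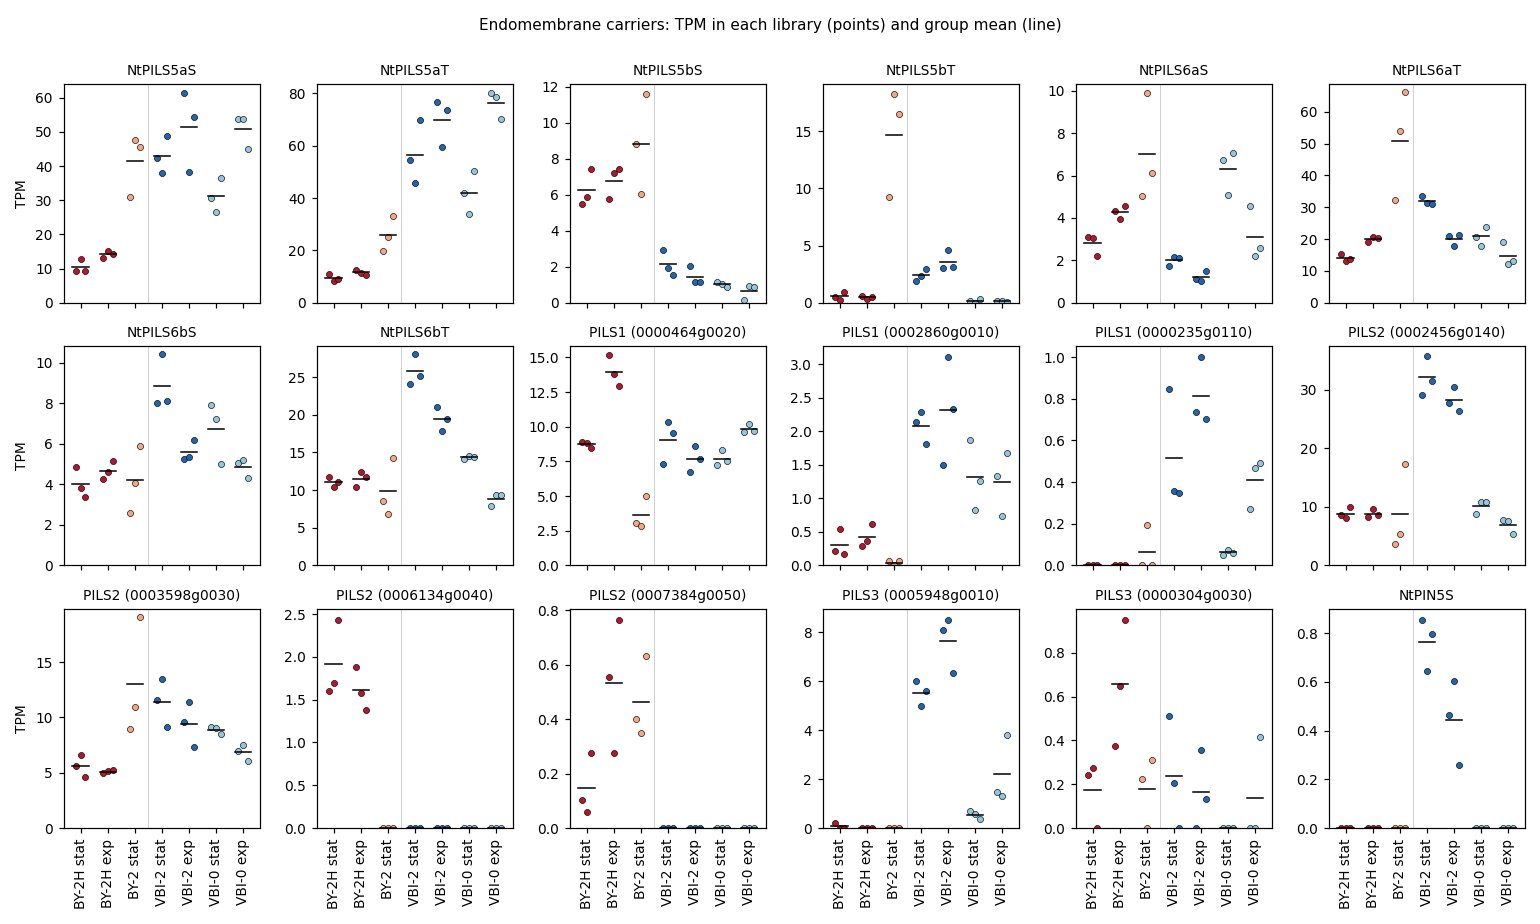
TPM (vertical axis, own scale in each panel) of the 18 endomembrane transcripts above the filter in the 7 groups (horizontal axis, stat for stationary and exp for exponential), with a point for each library and a line at the group mean. NtPILS5bT is high in BY-2 and VBI-2 and low in BY-2H and VBI-0, NtPIN5S has reads in VBI-2 alone and PILS2 (0006134g0040) in BY-2H alone.

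In stationary BY-2H against BY-2, 5 of the 8 PILS5 and PILS6 copies were called lower and the other 3 were not called. Of 17 endomembrane transcripts tested, 8 were called, or 47.1%, against 42.8% of all 47271 transcripts tested. A single one was higher, against 20.3% of all transcripts, and 7 were lower, against 22.5%. The median log2 fold change was −0.51 over the tested members and −0.06 over all transcripts. The largest fall among transcripts with reads in both lines was that of NtPILS5bT. NtPILS5bT had 0.479, 0.252 and 0.919 TPM in BY-2H, against 9.21, 18.2 and 16.5 TPM in BY-2 (log2 fold change −4.70 ± 0.42, adjusted p = 3.8e-06). All 3 BY-2H libraries lay below 1 TPM and the groups did not overlap.

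PILS5 and PILS6 of Arabidopsis are carriers of the endoplasmic reticulum that lower nuclear auxin signalling. NtPILS6aT had 15.4, 13.0 and 13.9 TPM in BY-2H, against 32.2, 54.0 and 66.2 TPM in BY-2 (−2.15 ± 0.23, adjusted p = 1.27e-05). NtPILS5aS had 9.18, 12.8 and 9.20 TPM in BY-2H, against 30.9, 47.6 and 45.7 TPM in BY-2 (−2.14 ± 0.28, adjusted p = 7.74e-05). For both, every BY-2H library was below every BY-2 library, and BY-2 replicate 1 was the lowest of its group. NtPILS5aT had 10.9, 8.39 and 9.17 TPM in BY-2H, against 19.8, 25.1 and 33.2 TPM in BY-2 (−1.60 ± 0.25, adjusted p = 0.000255). NtPILS6aS had 3.12, 3.06 and 2.22 TPM in BY-2H, against 5.04, 9.90 and 6.12 TPM in BY-2 (−1.48 ± 0.29, adjusted p = 0.0011). The groups were apart in these copies too. The remaining copies of these names were not called: NtPILS5bS averaged 6.26 ± 1.03 TPM in BY-2H and 8.82 ± 2.79 TPM in BY-2, NtPILS6bS 4.02 ± 0.738 and 4.19 ± 1.66 TPM and NtPILS6bT 11.1 ± 0.653 and 9.87 ± 3.87 TPM.

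Among the transcripts named PILS2, PILS2 (0003598g0030) had 5.64, 6.58 and 4.58 TPM in BY-2H, against 8.96, 10.9 and 19.1 TPM in BY-2 (−1.80 ± 0.28, adjusted p = 0.000246). PILS2 (0006134g0040) had 1.60, 1.70 and 2.44 TPM in BY-2H while BY-2 had no read. With a floor of 3 reads over the BY-2 group, which covers counting error only, the level in BY-2H was at least 13.1-fold higher (adjusted p = 0.000976). This transcript had 37 reads in exponential and 42 in stationary BY-2H and none in the other 15 libraries, so its reads occurred in the libraries of 1 company alone. PILS2 (0007384g0050) had 0.105, 0.0591 and 0.276 TPM in BY-2H, against 0.401, 0.351 and 0.633 TPM in BY-2 (−1.98 ± 0.75, adjusted p = 0.0442). That call rested on 7 and 28 reads and was lost without replicate 1 or 2 of stationary BY-2H or replicate 1 or 3 of BY-2, where the log2 fold change was −1.79, −1.62, −1.97 and −1.79. No VBI library held a read of it. PILS2 (0002456g0140) was not called, at 8.83 ± 0.977 TPM in BY-2H and 8.83 ± 7.47 TPM in BY-2, where replicate 3 reached 17.4 TPM.

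PILS1 (0000464g0020) ran the other way. It had 8.92, 8.86 and 8.47 TPM in BY-2H, against 3.05, 2.81 and 5.03 TPM in BY-2, and the groups did not overlap, but the fitted difference of 0.94 ± 0.26 (adjusted p = 0.00971) was under the fold limit. It passed the limit, at 1.14, without BY-2 replicate 3. PILS1 (0002860g0010) had 12 reads in BY-2H and 2 in BY-2, a ratio of 5.64 (95% interval 1.25 to 51.8, counting error only), and was not called. PILS3 (0000304g0030) averaged 0.173 ± 0.150 TPM in BY-2H and 0.179 ± 0.161 TPM in BY-2. PILS3 (0005948g0010) and PILS1 (0000235g0110) had at most 3 reads in either group, too few for a fold.

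In the VBI lines more of the called endomembrane transcripts were higher than lower, opposite to BY-2H against BY-2. In stationary VBI-2 against VBI-0, 6 of 16 endomembrane transcripts tested were called, or 37.5%, against 39.8% of all 48440 transcripts, with 5 higher, against 17.6% of all transcripts, and 1 lower, against 22.2%. In exponential VBI-2 against VBI-0, 7 of 16 were called, or 43.8%, against 38.4% of all, with 6 higher, against 17.0% of all, and 1 lower, against 21.4%. The median log2 fold change over the tested members was 0.75 in stationary and 0.48 in exponential phase, against −0.03 and −0.02 over all transcripts. With the transcripts that had no read in 1 line placed at their bound, the stationary median was 0.71. The higher calls included NtPIN5S in both phases and PILS1 (0000235g0110) in stationary phase. Both passed the filter through VBI-2 alone, which favoured that direction.

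NtPILS5bT was higher in VBI-2 in both phases. It had 1.86, 2.36 and 2.95 TPM in stationary VBI-2, against 0.143, 0 and 0.328 TPM in stationary VBI-0 (3.78 ± 0.48, adjusted p = 1.35e-07). In exponential phase it had 3.07, 4.61 and 3.11 TPM in VBI-2, against 0.140, 0.106 and 0.0776 TPM in VBI-0 (5.01 ± 0.47, adjusted p = 8.87e-10). The lines were apart in every library, as in BY-2H and BY-2 but with the signs reversed. Whether the 2 line effects on NtPILS5bT differ was not tested.

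Of the 4 PILS2 and PILS3 transcripts tested in the VBI lines, PILS3 (0005948g0010) and PILS2 (0002456g0140) were called, both higher in VBI-2. PILS3 (0005948g0010) had 6.03, 4.97 and 5.61 TPM in stationary VBI-2, against 0.681, 0.583 and 0.390 TPM in stationary VBI-0 (3.32 ± 0.39, adjusted p = 3.64e-07). The exponential values were 8.10, 8.52 and 6.35 TPM in VBI-2, against 1.47, 1.31 and 3.80 TPM in VBI-0 (1.70 ± 0.30, adjusted p = 5.7e-05). The lowest VBI-2 library was above the highest VBI-0 library in either phase, and exponential VBI-0 replicate 3 stood above its group. PILS2 (0002456g0140) had 29.2, 35.8 and 31.6 TPM in stationary VBI-2, against 8.86, 10.8 and 10.8 TPM in stationary VBI-0 (1.57 ± 0.12, adjusted p = 1.18e-11). Its exponential libraries had 27.8, 30.6 and 26.5 TPM in VBI-2, against 7.72, 7.58 and 5.40 TPM in VBI-0 (1.84 ± 0.12, adjusted p = 7.17e-13). It was the third most abundant endomembrane transcript of VBI-2.

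NtPIN5S was the one PIN transcript above the filter. PIN5 of Arabidopsis resides in the endoplasmic reticulum. NtPIN5S had 0.855, 0.643 and 0.797 TPM in stationary VBI-2 and 0.464, 0.602 and 0.258 TPM in exponential VBI-2, and no read in VBI-0, BY-2H or BY-2. It was at least 5.87-fold higher in stationary VBI-2 (18 reads, adjusted p = 0.00145) and at least 4.11-fold higher in exponential VBI-2 (11 reads, adjusted p = 0.00528) than in VBI-0. Each of the 6 VBI-2 libraries held the transcript, but read numbers were low and each of the calls was lost under another setting. NtPIN5S passed the filter only through stationary VBI-2, a group then compared with VBI-0.

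PILS1 (0000235g0110) had 0.847, 0.355 and 0.346 TPM in stationary VBI-2, against 0.0519, 0.0742 and 0.0614 TPM in stationary VBI-0, or 23 against 3 reads, a ratio of 7.50 (95% interval 2.27 to 39.0, adjusted p = 0.00233). This call was lost under another setting. In exponential phase PILS1 (0000235g0110) averaged 0.814 ± 0.163 TPM in VBI-2 and 0.411 ± 0.121 TPM in VBI-0 and was not called. The 2 remaining calls among the higher transcripts, both in exponential phase, lay near the limits. NtPILS6bT had 21.1, 17.8 and 19.5 TPM in exponential VBI-2, against 7.88, 9.38 and 9.30 TPM in exponential VBI-0 (1.00 ± 0.12, adjusted p = 3.13e-08), and fell below the fold limit without replicate 1 of exponential VBI-2 (0.94) or of exponential VBI-0 (0.95). In stationary phase the difference was 0.80 ± 0.11. NtPILS5bS had 2.02, 1.17 and 1.15 TPM in exponential VBI-2, against 0.167, 0.907 and 0.867 TPM in exponential VBI-0 (1.08 ± 0.46, adjusted p = 0.0435). The groups of both transcripts were apart, but the call on NtPILS5bS was lost without replicate 1 of exponential VBI-2 (0.73) or of exponential VBI-0 (0.65).

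NtPILS6aS was the one endomembrane transcript called lower in VBI-2. It had 1.73, 2.15 and 2.09 TPM in stationary VBI-2, against 6.74, 5.08 and 7.07 TPM in stationary VBI-0 (−1.81 ± 0.22, adjusted p = 9.51e-08). Exponential libraries had 1.13, 1.02 and 1.51 TPM in VBI-2, against 4.56, 2.19 and 2.56 TPM in VBI-0 (−1.44 ± 0.24, adjusted p = 1.08e-05), a call lost under another setting. With the fall in BY-2H given above, it was the one endomembrane transcript of the 18 that was called lower in all 3 line comparisons, as were 4.55% of all transcripts, and no endomembrane transcript was called higher in all 3, against 2.53% of all. Its T copy NtPILS6aT averaged 32.0 ± 1.45 TPM in stationary VBI-2 and 20.8 ± 3.09 TPM in stationary VBI-0.

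NtPILS5aT and NtPILS5aS, the most abundant endomembrane transcripts of the VBI lines, were not called between them. In stationary phase NtPILS5aT averaged 56.6 ± 12.2 TPM in VBI-2 and 42.1 ± 8.15 TPM in VBI-0, and NtPILS5aS 43.0 ± 5.38 and 31.2 ± 4.96 TPM. In exponential phase NtPILS5aT averaged 69.8 ± 9.19 TPM in VBI-2 and 76.3 ± 5.43 TPM in VBI-0, and NtPILS5aS 51.3 ± 11.97 and 51.0 ± 5.08 TPM. Also not called were NtPILS6bS, at 8.84 ± 1.36 TPM in stationary VBI-2 and 6.73 ± 1.53 TPM in stationary VBI-0, PILS2 (0003598g0030), at 11.4 ± 2.20 and 8.90 ± 0.345 TPM, PILS1 (0000464g0020), at 9.06 ± 1.56 and 7.69 ± 0.581 TPM, and PILS1 (0002860g0010), at 2.08 ± 0.238 and 1.32 ± 0.526 TPM. In exponential phase PILS1 (0000464g0020) had 6.76, 8.62 and 7.64 TPM in VBI-2, against 9.59, 10.2 and 9.69 TPM in VBI-0, the libraries of the lines apart, and passed the adjusted p under the fold limit (−0.42 ± 0.14, adjusted p = 0.0125). PILS3 (0000304g0030) had 5 reads in stationary VBI-2 and none in stationary VBI-0.

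Between growth phases, endomembrane transcripts were called in VBI-0, and the counts for VBI-2 and BY-2H follow. In VBI-0, stationary against exponential, 4 of 16 were called, or 25%, against 4.24% of all transcripts, with 1 higher, against 1.80% of all, and 3 lower, against 2.44%. NtPILS5aT had 42.0, 33.9 and 50.2 TPM in stationary VBI-0, against 80.1, 78.7 and 70.1 TPM in exponential VBI-0 (−1.02 ± 0.19, adjusted p = 0.00308). NtPILS5aS had 30.6, 26.6 and 36.4 TPM in stationary VBI-0, against 53.9, 53.9 and 45.1 TPM in exponential VBI-0, and at −0.86 ± 0.16 stayed under the fold limit. Both copies were lower in every stationary library. PILS3 (0005948g0010) also fell, to the stationary values given above (−2.17 ± 0.42, adjusted p = 0.000864), and PILS1 (0000235g0110) had 3 reads in stationary and 26 in exponential VBI-0, 7.41-fold fewer (95% interval 2.27 to 38.2, adjusted p = 0.0115). NtPILS6aS rose in stationary VBI-0 (1.02 ± 0.21, adjusted p = 0.000857). The calls on NtPILS5aT and NtPILS6aS were each lost on leaving out any of 4 of the 12 libraries of the fit, with values down to −0.89 and 0.85, and that on PILS1 (0000235g0110) without exponential replicate 3 or stationary replicate 1 of VBI-0 (−2.54 and −2.63).

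In VBI-2 no endomembrane transcript was called between the phases by edgeR, against 1.37% of all transcripts (0.809% higher and 0.564% lower), and none by DESeq2 or limma. Of the 16 tested, 5 had an unadjusted p below 0.05 and NtPILS6aT alone passed the adjusted p, with 33.7, 31.5 and 30.9 TPM in stationary VBI-2, against 20.8, 18.0 and 21.4 TPM in exponential VBI-2 (0.58 ± 0.12, adjusted p = 0.00657). In BY-2H edgeR, DESeq2 and limma each called 0 of 16, against 2.70% of all 44765 transcripts tested by edgeR. There 5 had an unadjusted p below 0.05 and 3 passed the adjusted p. PILS1 (0000464g0020) had 8.92, 8.86 and 8.47 TPM in stationary BY-2H, against 15.2, 13.8 and 12.9 TPM in exponential BY-2H (−0.65 ± 0.13, adjusted p = 4.96e-05). NtPILS6aT had 15.4, 13.0 and 13.9 TPM in stationary BY-2H, against 19.0, 20.7 and 20.4 TPM in exponential BY-2H (−0.51 ± 0.10, adjusted p = 7.68e-06). NtPILS6aS averaged 2.80 ± 0.505 TPM in stationary BY-2H, against 4.28 ± 0.317 TPM in exponential BY-2H (−0.59 ± 0.19, adjusted p = 0.0183). These 3 were lower in every stationary BY-2H library.

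The phase effects of the VBI lines were compared by the interaction of line and phase, called at an adjusted p of at most 0.05 with no fold limit. Of 16 endomembrane transcripts 1 was called, or 6.25%, against 7.0% of all transcripts. For PILS1 (0000464g0020) the phase effect was 0.17 ± 0.14 in VBI-2 and −0.50 ± 0.14 in VBI-0, and the difference of 0.66 ± 0.20 had an adjusted p of 0.0464. It lost its call on leaving out any of 9 of the 12 libraries, at values of 0.58 to 0.68.

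The 9 endomembrane transcripts under the filter had at most 0.161 TPM as a group mean. PILS2 (0007384g0040) and NtPIN10 (0000946g0090) had no read in any of the 21 libraries. NtPIN5T and NtPIN8S had 1 read each in 1 library, of exponential VBI-2 and of stationary BY-2H, and NtPIN8T had 3 reads, all in 1 stationary BY-2H library. NtPIN10 (0000316g0050) had estimated reads in 3 libraries, all of VBI-2. NtPIN6T had 18.4 estimated reads over 9 libraries, all of the VBI lines. PIN6 and PIN8 of Arabidopsis act in part or mainly at the endoplasmic reticulum, and PIN8 is known from pollen. NtPIN6S (0003482g0010) and NtPIN6S (0003482g0020) had 11.6 and 8.00 estimated reads over all libraries. These gene models are neighbours on their scaffold and matched the same RefSeq locus of assembly ASM71507v2, as did PILS2 (0007384g0040) and PILS2 (0007384g0050), so their values as separate transcripts are uncertain. The models were short, with a median of 1077 bases in the 9 transcripts under the filter and 1301 bases in the 18 above it.

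ABCB transcripts were summed in the same way. The sum over the 23 was 98.7 ± 10.8 TPM in stationary BY-2H and 108 ± 3.59 TPM in the exponential phase, against 238 ± 95.6 TPM in BY-2. It was 217 ± 17.0 TPM in stationary VBI-2, against 296 ± 22.0 TPM in stationary VBI-0, and 291 ± 69.9 TPM in exponential VBI-2, against 345 ± 11.95 TPM in exponential VBI-0. BY-2H libraries were below BY-2 libraries and stationary VBI-2 below stationary VBI-0, whereas the exponential VBI lines overlapped. NtABCB21T was the most abundant ABCB transcript in 6 groups, with 31.9% to 57.3% of the sum, and NtABCB21S in BY-2, with 43.2%. Of the 23 transcripts 17 passed the filter.

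**Figure D2:**
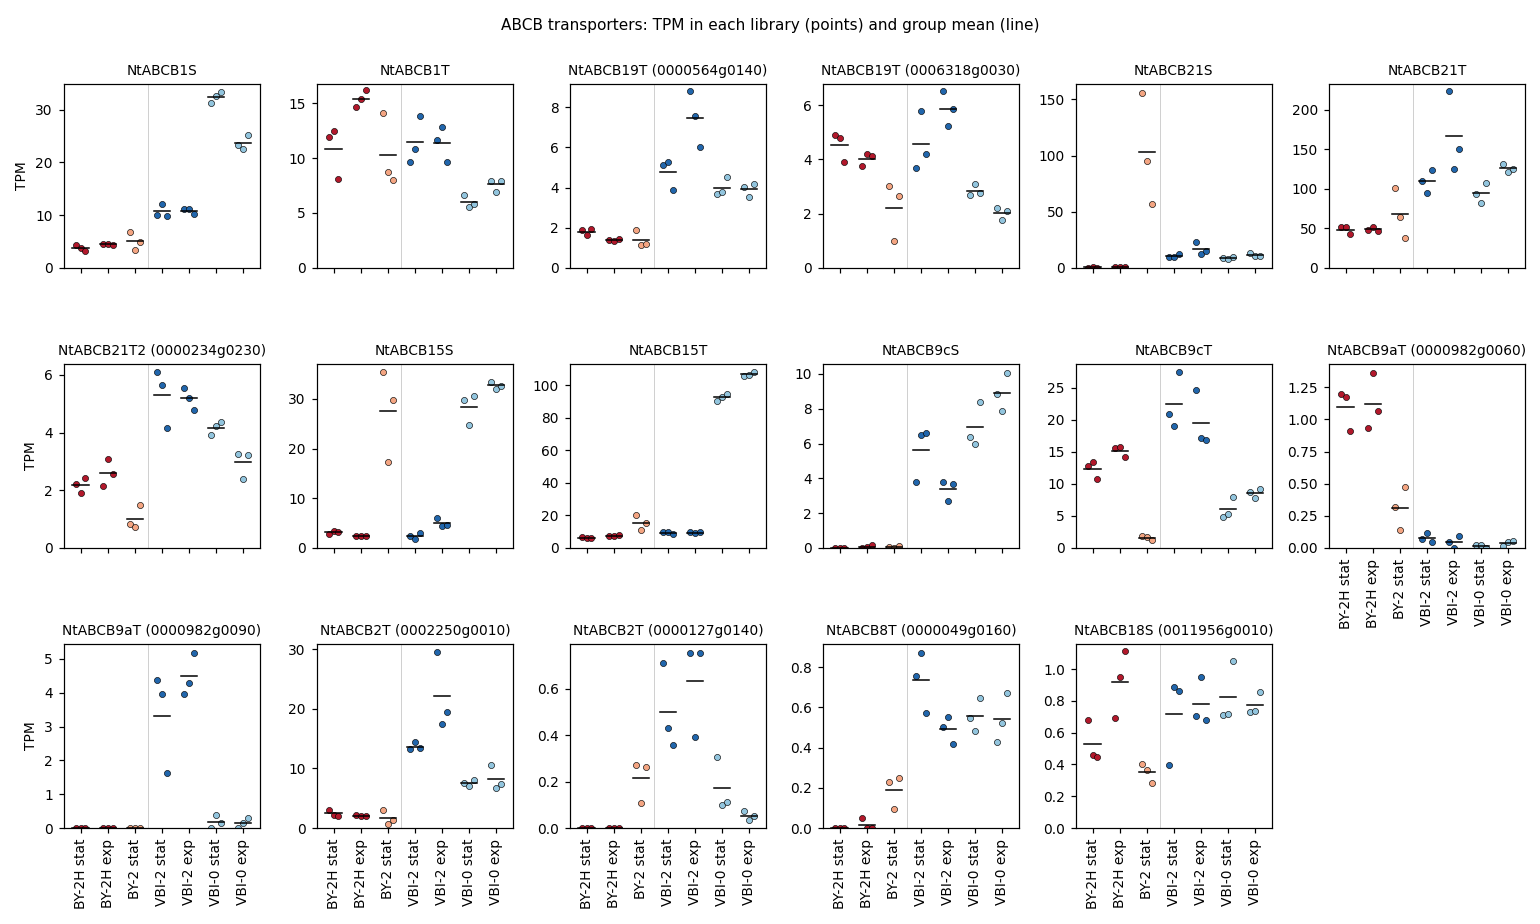
TPM (vertical axis, own scale in each panel) of the 17 ABCB transcripts above the filter in the 7 groups (horizontal axis, stat for stationary and exp for exponential), with a point for each library and a line at the group mean. NtABCB21S stands at 57.2 to 156 TPM in BY-2 and below 1 TPM in BY-2H, and NtABCB15S and NtABCB15T are low in both habituated lines.

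In stationary BY-2H against BY-2, 7 of 16 ABCB transcripts tested were called, or 43.8%, close to the 42.8% of all transcripts given above. Of these, 2 were higher, against 20.3% of all transcripts, and 5 lower, against 22.5%. The median log2 fold change was −0.55 over the tested ABCB transcripts and −0.06 over all transcripts. NtABCB21S had 0.333, 0.562 and 0.279 TPM in BY-2H, against 156, 95.0 and 57.2 TPM in BY-2 (−8.52 ± 0.58, adjusted p = 2.01e-05). This was the largest fitted fall among members with reads in both lines, and exponential BY-2H was as low, at 0.558, 0.411 and 0.543 TPM. ABCB21 of Arabidopsis transports auxin into or out of cells. The T copy was not called: NtABCB21T had 52.2, 51.2 and 42.3 TPM in BY-2H, against 101, 64.7 and 37.5 TPM in BY-2 (−0.90 ± 0.35, adjusted p = 0.0595). BY-2 replicate 3 lay below all 3 BY-2H libraries, and without it NtABCB21T was called at −1.24.

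NtABCB15 copies, named for an Arabidopsis ABCB of the vascular tissue of the stem, were lower in BY-2H as well. NtABCB15S had 2.81, 3.46 and 3.13 TPM in BY-2H, against 35.4, 17.3 and 29.7 TPM in BY-2 (−3.59 ± 0.24, adjusted p = 5.25e-07). NtABCB15T had 6.57, 6.15 and 6.10 TPM in BY-2H, against 20.2, 11.3 and 15.3 TPM in BY-2 (−1.70 ± 0.21, adjusted p = 3.86e-05). No BY-2H library reached the lowest BY-2 library. The 2 other transcripts called lower had no read in stationary BY-2H. NtABCB2T (0000127g0140) had 0.270, 0.110 and 0.263 TPM in BY-2 (44 reads), which made BY-2H at least 15.6-fold lower (adjusted p = 0.000909). NtABCB8T (0000049g0160) had 0.227, 0.0965 and 0.250 TPM in BY-2 (39 reads), which made BY-2H at least 13.8-fold lower (adjusted p = 0.00106). On log2(TPM + 0.5) neither reached the fold limit, at −0.51 and −0.46, since both are of low abundance in BY-2 too.

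Of the ABCB transcripts tested, NtABCB9cT and NtABCB9aT (0000982g0060) were called higher in BY-2H. The latter passed the filter through BY-2H alone. NtABCB9cT had 12.8, 13.4 and 10.7 TPM in BY-2H, against 1.80, 1.79 and 1.20 TPM in BY-2 (2.63 ± 0.25, adjusted p = 6.58e-06). NtABCB9aT (0000982g0060) had 1.20, 1.18 and 0.913 TPM in BY-2H, against 0.319, 0.143 and 0.478 TPM in BY-2 (1.59 ± 0.40, adjusted p = 0.00627). For both transcripts the groups were apart, but the call on NtABCB9aT (0000982g0060) was lost under another setting. NtABCB9cT ranked second in the ABCB sum of stationary BY-2H, with 12.5%. NtABCB9cS ran the other way, with 1 rounded read in BY-2H and 11 in BY-2, and was not called.

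The homologues of the auxin exporters ABCB1 and ABCB19 were not called between BY-2H and BY-2. NtABCB1T averaged 10.8 ± 2.38 TPM in BY-2H and 10.3 ± 3.29 TPM in BY-2 (−0.34 ± 0.25, adjusted p = 0.26), and NtABCB1S 3.80 ± 0.617 and 5.07 ± 1.73 TPM (−0.76 ± 0.24, adjusted p = 0.0194), with overlapping groups. NtABCB19T (0000564g0140) averaged 1.81 ± 0.168 TPM in BY-2H and 1.40 ± 0.412 TPM in BY-2, and NtABCB19T (0006318g0030) 4.54 ± 0.555 and 2.22 ± 1.08 TPM. Also not called were NtABCB21T2 (0000234g0230), at 2.18 ± 0.267 TPM in BY-2H and 1.01 ± 0.404 TPM in BY-2, NtABCB2T (0002250g0010), at 2.45 ± 0.556 and 1.72 ± 1.12 TPM, and NtABCB18S (0011956g0010), at 0.529 ± 0.132 and 0.350 ± 0.0581 TPM. NtABCB21T2 (0000234g0230), at 0.80 ± 0.28, passed the fold limit without BY-2 replicate 3 (1.07).

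In stationary VBI-2 against VBI-0, 6 of 17 ABCB transcripts tested were called, or 35.3%, with 3 higher and 3 lower. In exponential VBI-2 against VBI-0, 9 of 17 were called, or 52.9%, with 5 higher and 4 lower. All transcripts gave 39.8% in stationary phase (17.6% higher, 22.2% lower) and 38.4% in exponential phase (17.0% higher, 21.4% lower). In both phases the higher calls included NtABCB9aT (0000982g0090) and NtABCB2T (0000127g0140), which passed the filter through VBI-2 alone. The filter thus favoured that direction for them, and the counts of higher calls rest in part on it. The median log2 fold change over the tested ABCB transcripts was 0.15 in stationary and 0.37 in exponential phase. The NtABCB15 copies fell the most. NtABCB15T had 9.63, 9.94 and 8.68 TPM in stationary VBI-2, against 90.1, 92.7 and 94.7 TPM in stationary VBI-0 (−3.45 ± 0.08, adjusted p = 1.26e-21). In exponential phase it had 9.51, 9.33 and 9.60 TPM in VBI-2, against 106, 106 and 108 TPM in VBI-0 (−3.62 ± 0.08, adjusted p = 4.78e-22). The 6 VBI-2 libraries lay between 8.68 and 9.94 TPM, and NtABCB15T held 31.2% of the ABCB sum in stationary VBI-0.

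NtABCB15S had 2.43, 1.85 and 2.91 TPM in stationary VBI-2, against 29.8, 24.7 and 30.5 TPM in stationary VBI-0 (−3.76 ± 0.15, adjusted p = 3.92e-12). The exponential values were 6.11, 4.35 and 4.64 TPM in VBI-2, against 33.5, 32.0 and 32.7 TPM in VBI-0 (−2.87 ± 0.14, adjusted p = 5.13e-11). With BY-2H, these were the 2 ABCB transcripts of 17 called lower in all 3 line comparisons, against 4.55% of all transcripts. NtABCB1S, a copy of the auxin exporter ABCB1, had 10.1, 12.2 and 9.88 TPM in stationary VBI-2, against 31.3, 32.7 and 33.4 TPM in stationary VBI-0 (−1.81 ± 0.08, adjusted p = 8.1e-16). Its exponential libraries had 11.2, 11.2 and 10.1 TPM in VBI-2, against 23.4, 22.6 and 25.3 TPM in VBI-0 (−1.27 ± 0.08, adjusted p = 8.76e-13). Its T copy ran the other way under the fold limit, at 11.4 ± 2.16 TPM in stationary VBI-2 and 5.99 ± 0.558 TPM in stationary VBI-0 (0.72 ± 0.12, adjusted p = 1.59e-05).

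NtABCB9cT was the one ABCB transcript of 17 called higher in all 3 line comparisons, against 2.53% of all transcripts. It had 20.9, 19.0 and 27.4 TPM in stationary VBI-2, against 4.87, 5.32 and 7.94 TPM in stationary VBI-0 (1.75 ± 0.21, adjusted p = 3.06e-05). Exponential libraries had 24.6, 17.2 and 16.8 TPM in VBI-2, against 8.70, 7.83 and 9.18 TPM in VBI-0 (1.08 ± 0.20, adjusted p = 0.000879). The lines did not overlap in either phase, though the exponential value was 0.90 without replicate 1 of exponential VBI-2. NtABCB9cS went down in exponential phase, with 3.79, 2.72 and 3.68 TPM in VBI-2, against 8.84, 7.86 and 10.1 TPM in VBI-0 (−1.50 ± 0.20, adjusted p = 2.03e-05). In stationary phase NtABCB9cS averaged 5.62 ± 1.59 TPM in VBI-2 and 6.92 ± 1.302 TPM in VBI-0 and was not called.

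NtABCB9aT (0000982g0090), a model of 726 bases, was higher in VBI-2. It had 4.38, 3.95 and 1.63 TPM in stationary VBI-2, against 0, 0.378 and 0.155 TPM in stationary VBI-0, or 61 against 3 reads, a ratio of 19.9 (95% interval 6.49 to 99.1, adjusted p = 1.39e-05). In exponential phase it had 3.97, 4.29 and 5.18 TPM in VBI-2, against 0, 0.160 and 0.303 TPM in VBI-0 (4.498 ± 0.65, adjusted p = 1.21e-06). No BY-2H or BY-2 library held a read of it. Its neighbour on the scaffold, NtABCB9aT (0000982g0060), with 2 genes between them, had at most 0.118 TPM in a VBI library and was not called between the VBI lines.

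NtABCB2T (0000127g0140) was higher in VBI-2 in both phases. It had 0.709, 0.433 and 0.360 TPM in stationary VBI-2, against 0.307, 0.100 and 0.114 TPM in stationary VBI-0 (1.27 ± 0.41, adjusted p = 0.00883), a call lost without replicate 1 of stationary VBI-2 (0.97). The exponential values were 0.753, 0.394 and 0.756 TPM in VBI-2, against 0.0736, 0.0332 and 0.0516 TPM in VBI-0 (3.36 ± 0.46, adjusted p = 6.37e-07), a call lost under another setting. Its direction was opposite to that in BY-2H against BY-2, and this difference between the pairs of lines was not tested. NtABCB2T (0002250g0010) had 29.5, 17.4 and 19.5 TPM in exponential VBI-2, against 10.5, 6.72 and 7.45 TPM in exponential VBI-0 (1.31 ± 0.17, adjusted p = 3.52e-05). In stationary phase it averaged 13.7 ± 0.689 TPM in VBI-2 and 7.54 ± 0.514 TPM in VBI-0 (0.70 ± 0.18), under the fold limit.

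Of the homologues of the auxin exporter ABCB19, NtABCB19T (0006318g0030) had 6.51, 5.24 and 5.84 TPM in exponential VBI-2, against 2.19, 1.76 and 2.08 TPM in exponential VBI-0 (1.36 ± 0.14, adjusted p = 3.42e-09). In stationary phase it averaged 4.56 ± 1.10 TPM in VBI-2 and 2.85 ± 0.216 TPM in VBI-0. NtABCB19T (0000564g0140) averaged 7.46 ± 1.39 TPM in exponential VBI-2 and 3.92 ± 0.332 TPM in exponential VBI-0 (0.76 ± 0.12), and 4.77 ± 0.770 TPM in stationary VBI-2 and 3.99 ± 0.465 TPM in stationary VBI-0. Not called in either phase were the NtABCB21 transcripts. In stationary phase NtABCB21T averaged 110 ± 14.8 TPM in VBI-2 and 94.6 ± 12.7 TPM in VBI-0, NtABCB21S 10.5 ± 1.55 and 8.59 ± 0.976 TPM and NtABCB21T2 (0000234g0230) 5.31 ± 1.02 and 4.17 ± 0.223 TPM. NtABCB8T (0000049g0160), at 0.733 ± 0.152 TPM in stationary VBI-2 and 0.559 ± 0.0834 TPM in stationary VBI-0, and NtABCB18S (0011956g0010), at 0.716 ± 0.275 and 0.825 ± 0.193 TPM, were not called either.

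**Figure D3:**
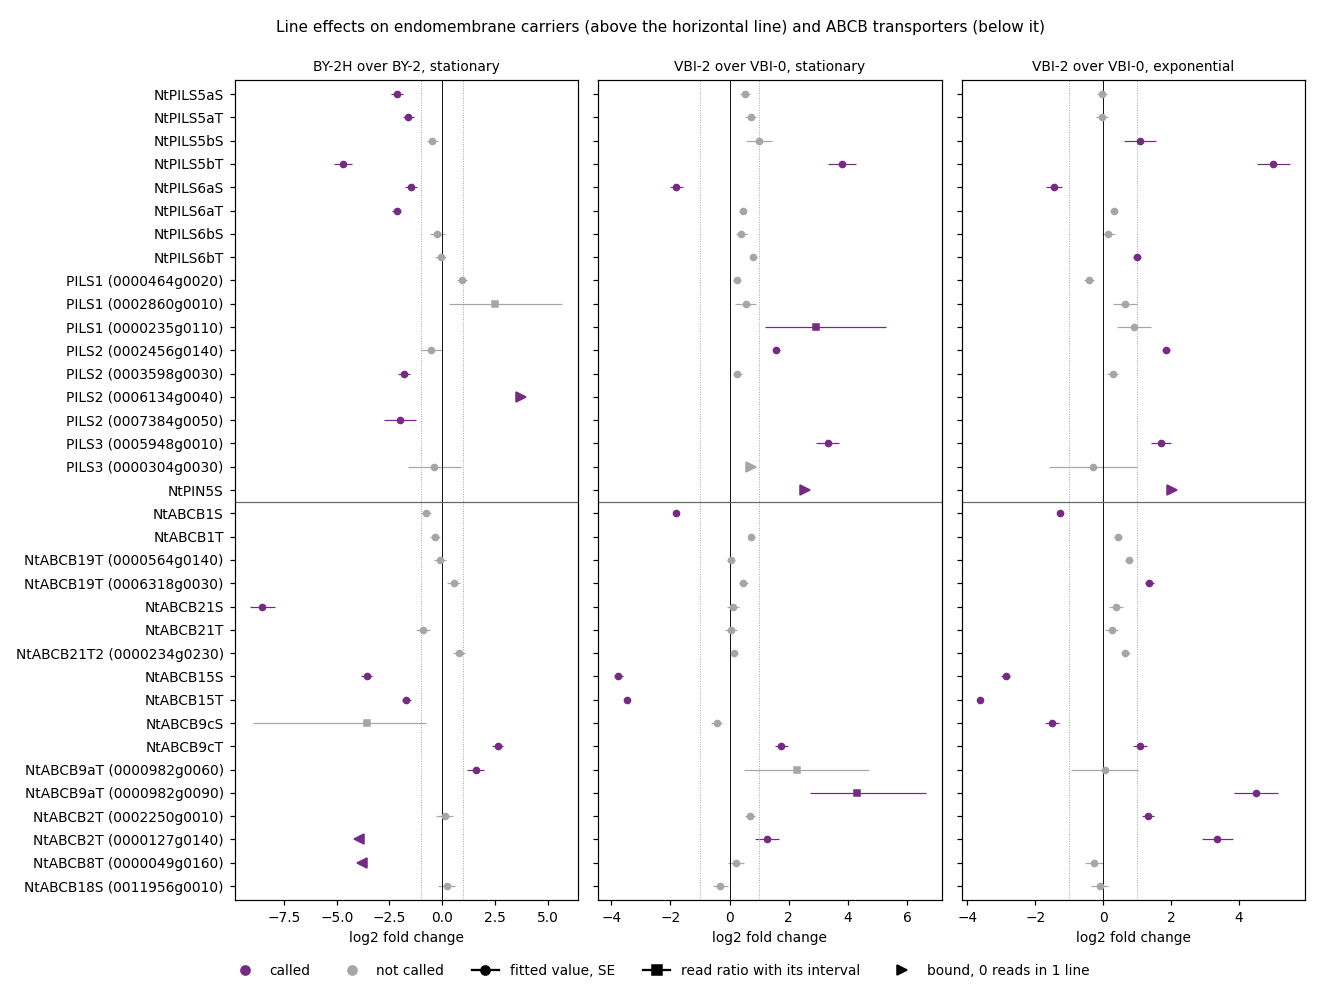
Log2 fold changes (horizontal axis, dotted lines at −1 and 1) of the 35 members above the filter (rows) in the 3 line comparisons, purple where called and grey where not, as fitted values with SE, as ratios of reads with 95% intervals where a line had 1 to 3 reads, or as triangles at the lower bound of the change where a line had none; members with at most 3 reads in total are left out of a panel. NtPILS6aS, NtABCB15S and NtABCB15T are called to the left of 0 in all 3 panels and NtABCB9cT to the right, while NtPILS5bT and NtABCB2T (0000127g0140) change sides.

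Across the line comparisons, 14 of the 18 endomembrane transcripts and 12 of the 17 ABCB transcripts above the filter were called at least once, against 66.6% of the 49906 transcripts tested in at least 1 of them. Of the endomembrane transcripts, 6 were called in BY-2H against BY-2 alone, 6 in the VBI lines alone, 1 in both with the same sign and 1 in both with opposite signs. Of the ABCB transcripts, 3 were called in BY-2H against BY-2 alone, 5 in the VBI lines alone, 3 in both with the same sign and 1 in both with opposite signs. Of all transcripts 21.1% were called in BY-2H against BY-2 alone, 26.0% in the VBI lines alone, 10.3% in both with the same sign and 9.14% in both with opposite signs. The line comparisons of VBI-2 and VBI-0 use different libraries in the 2 phases, and 5 endomembrane and 6 ABCB transcripts were called in both, against 30.5% of all transcripts.

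Few ABCB transcripts were called between the phases. In VBI-0, stationary against exponential, 1 of 17 was called, or 5.88%, near the 4.24% of all transcripts: NtABCB2T (0000127g0140), with 42 reads in stationary and 15 in exponential VBI-0 (1.65 ± 0.53, adjusted p = 0.0299). That call was lost on leaving out any exponential VBI-0 library or replicate 1 of stationary VBI-0, without which the value was 0.91. NtABCB1S had 31.3, 32.7 and 33.4 TPM in stationary VBI-0, against 23.4, 22.6 and 25.3 TPM in exponential VBI-0 (0.44 ± 0.08, adjusted p = 0.00026), under the fold limit. In VBI-2, 1 of 17 was called, against 1.37% of all. NtABCB15S had 2.43, 1.85 and 2.91 TPM in stationary VBI-2, against 6.11, 4.35 and 4.64 TPM in exponential VBI-2 (−1.14 ± 0.15, adjusted p = 0.000264), and was at −0.97, under the fold limit, without replicate 2 of stationary VBI-2.

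In BY-2H, stationary against exponential, edgeR, DESeq2 and limma each called 0 of 15 ABCB transcripts, against 2.70% of all transcripts tested by edgeR. In edgeR 8 ABCB transcripts had an unadjusted p below 0.05 and 5 passed the adjusted p under the fold limit. NtABCB1T had 11.9, 12.4 and 8.07 TPM in stationary BY-2H, against 14.6, 15.4 and 16.2 TPM in exponential BY-2H (−0.51 ± 0.08, adjusted p = 7.88e-09). NtABCB9cT averaged 12.3 ± 1.39 TPM in stationary BY-2H, against 15.2 ± 0.913 TPM in exponential BY-2H (−0.28 ± 0.08, adjusted p = 0.00858). NtABCB15S was slightly higher in stationary phase, at 3.13 ± 0.327 TPM against 2.41 ± 0.0679 TPM in exponential BY-2H (0.39 ± 0.13, adjusted p = 0.0351). The other 2, NtABCB18S (0011956g0010) and NtABCB15T, differed by −0.75 ± 0.27 and −0.26 ± 0.09.

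The interaction of line and phase called 6 of 17 ABCB transcripts, or 35.3%, against 7.0% of all transcripts. In 5 of them the phase effect was lower in VBI-2 than in VBI-0, against 2.88% of all transcripts, and in NtABCB9cS it was higher, against 4.12%. For NtABCB19T (0006318g0030) the phase effect was −0.42 ± 0.13 in VBI-2 and 0.47 ± 0.14 in VBI-0 (difference −0.89 ± 0.19, adjusted p = 0.00474). For NtABCB1S it was −0.10 ± 0.08 in VBI-2 and 0.44 ± 0.08 in VBI-0 (difference −0.54 ± 0.12, adjusted p = 0.00437). NtABCB19T (0000564g0140) differed by −0.71 ± 0.18 (adjusted p = 0.0131), whereas NtABCB1T, the other homologue of these auxin exporters, was not called, at 0.30 ± 0.17 (adjusted p = 0.366). NtABCB15S differed by −0.89 ± 0.20 (adjusted p = 0.0121). NtABCB2T (0000127g0140), at −2.09 ± 0.64 (adjusted p = 0.0475), and NtABCB9cS, at 1.07 ± 0.28 (adjusted p = 0.0375), lost their calls on leaving out any of 8 and of 10 of the 12 libraries. With all 21 libraries in 1 fit, or with limma on TPM, none of the 6 was called.

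The 6 ABCB transcripts under the filter included both transcripts named NtABCB4T, whose Arabidopsis namesake transports auxin in roots. NtABCB4T (0012375g0030) averaged 0.498 ± 0.129 TPM in stationary BY-2H and 0.259 ± 0.158 TPM in exponential BY-2H (74 and 41 reads), against 0.0240 ± 0.0208 TPM in BY-2 (4 reads). NtABCB4T (0000978g0070) averaged 0.227 ± 0.128 TPM in stationary BY-2H and 0.379 ± 0.107 TPM in exponential BY-2H and had no read in BY-2. Both lay at or below 0.101 TPM as group means of the VBI lines. NtABCB18S (0000397g0070) had 76.2 estimated reads in 15 libraries, none of them of BY-2, and NtABCB9aT (0002814g0130) had 66.1 in 15 libraries. NtABCB21T2 (0000234g0250), a model of 384 bases with 1 gene between it and NtABCB21T2 (0000234g0230), had 12.5 estimated reads, and NtABCB8T (0000764g0010) had none in any library.

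The S and T copies differed in level, and the share of the S copy differed between lines. Shares are TPM of the S copy over that of both copies, for the 8 pairs of 1 S and 1 T transcript of the same name that both passed the filter. The S copy of NtABCB21 made up 0.791% of the pair in stationary BY-2H (range 0.633% to 1.09%) and 1.03% in exponential BY-2H, against 60.2% in BY-2 (59.5% to 60.8%). In the VBI lines it made up 8.34% to 9.23% on average. All 3 BY-2 libraries thus held more S than T copy, in contrast to every other library.

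**Figure D4:**
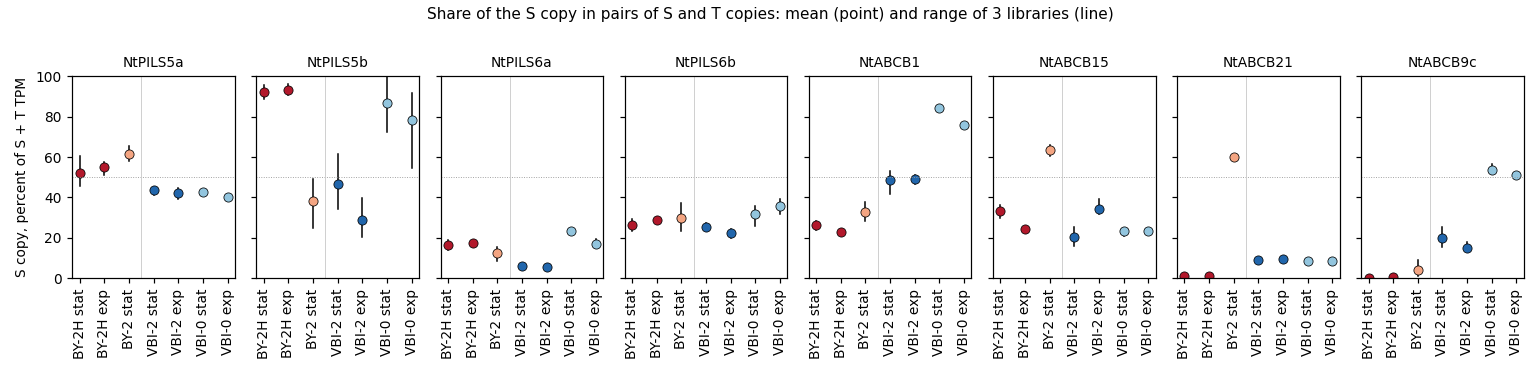
Share of the S copy (vertical axis, percent of S plus T TPM) of 8 pairs in the 7 groups (horizontal axis, stat for stationary and exp for exponential), with a point at the mean and a line over the range of 3 libraries. For NtABCB21 the share is 0.791% and 1.03% in BY-2H and 60.2% in BY-2, and for NtABCB1 it is 48.6% and 49.0% in VBI-2 and 84.4% and 75.8% in VBI-0.

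NtPILS5b moved the other way round between BY-2H and BY-2, with an S share of 92.3% in stationary BY-2H (89.0% to 95.9%), against 38.4% in BY-2 (24.8% to 49.0%). It was 46.9% in stationary VBI-2 (34.3% to 61.4%), against 87.1% in stationary VBI-0 (72.3% to 100%), where the pair summed to 1.18 TPM only. The S copy of NtABCB15 made up 33.3% in stationary BY-2H (30.0% to 36.0%), against 63.4% in BY-2 (60.5% to 66.1%). In NtABCB1 it made up 48.6% in stationary VBI-2 (41.7% to 53.0%), against 84.4% in stationary VBI-0 (82.6% to 85.5%). The S share of NtPILS6a was 5.88% in stationary VBI-2 (4.89% to 6.41%), against 23.2% in stationary VBI-0 (22.3% to 24.5%). For NtPILS5a, NtPILS6a and NtPILS6b the ranges of stationary BY-2H and BY-2 overlapped. In NtABCB9c the S copy made up 20.02% in stationary VBI-2 (15.3% to 25.3%), against 53.7% in stationary VBI-0 (51.5% to 56.6%), and 15.0% in exponential VBI-2 (13.3% to 18.0%), against 50.9% in exponential VBI-0 (50.1% to 52.3%). It was at most 1.22% in a BY-2H library and between 1.11% and 8.89% in BY-2.

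Since reads shared by both copies are divided between them by the quantification, the reads of each pair were also summed and tested as 1 feature. The sum for NtABCB21 was 48.9 ± 5.51 TPM in stationary BY-2H, against 170.4 ± 81.6 TPM in BY-2 (−2.25 ± 0.37, adjusted p = 0.00159). The sum for NtABCB15 was 9.41 ± 0.192 TPM in stationary BY-2H, against 43.1 ± 13.6 TPM in BY-2 (−2.64 ± 0.21, adjusted p = 1.83e-06). The sums for NtPILS5a (−1.92 ± 0.25), NtPILS5b (−1.87 ± 0.25) and NtPILS6a (−2.06 ± 0.22) were also called lower in BY-2H, and those for NtPILS6b (−0.12 ± 0.23) and NtABCB1 (−0.46 ± 0.23) were not called. The sum for NtABCB9c, a pair added after its values were seen, was 12.3 ± 1.39 TPM in stationary BY-2H, against 1.66 ± 0.296 TPM in BY-2 (2.58 ± 0.24, adjusted p = 5.15e-06).

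In the VBI lines the sum for NtABCB15 was 11.8 ± 0.234 TPM in stationary VBI-2, against 121 ± 4.00 TPM in stationary VBI-0 (−3.52 ± 0.08, adjusted p = 2.93e-22), and 14.5 ± 1.00 TPM in exponential VBI-2, against 139 ± 1.12 TPM in exponential VBI-0 (−3.39 ± 0.08, adjusted p = 4.04e-22). The sum for NtPILS5b was 4.53 ± 0.267 TPM in stationary VBI-2, against 1.18 ± 0.114 TPM in stationary VBI-0 (2.05 ± 0.29, adjusted p = 8.62e-07), and was higher in exponential VBI-2 too (2.94 ± 0.30). The sum for NtABCB9c was 28.1 ± 5.16 TPM in stationary VBI-2, against 13.0 ± 2.93 TPM in stationary VBI-0 (1.00 ± 0.18, adjusted p = 0.000482), and fell under the fold limit without replicate 3 of stationary VBI-2 (0.82) or replicate 1 or 2 of stationary VBI-0 (0.93 and 0.95). In exponential phase it was not called (0.33 ± 0.18, adjusted p = 0.135). The other 5 pairs were not called in either phase. The summed NtABCB1 came nearest in stationary phase, at −0.99 ± 0.08, and the summed NtPILS6a, whose S copy fell, was at 0.16 ± 0.14.

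The remaining auxin carriers of the study's list were counted for comparison. In BY-2H against BY-2, where 42.8% of all transcripts were called (20.3% higher, 22.5% lower), 5 of 8 PIN efflux carriers tested (3 higher, 2 lower) and 6 of 13 influx carriers (1 higher, 5 lower) were called. In stationary VBI-2 against VBI-0, where 39.8% of all were called (17.6% higher, 22.2% lower), the counts were 7 of 8 (1 higher, 6 lower) and 14 of 15 (7 higher, 7 lower). In exponential phase, with 38.4% of all (17.0% higher, 21.4% lower), they were 7 of 8 (1 higher, 6 lower) and 13 of 15 (6 higher, 7 lower).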

How the data were processed

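Total RNA of 21 suspension culture samples was sequenced by service companies, 1 for BY-2H and another for the other lines. The authors trimmed the reads and quantified them with Salmon 1.3.0 against Nitab4.5 transcript models. The submitters' processing notes name Trimmomatic and the methods of the study name other tools for trimming. The deposited values are estimated counts of reads, which need not be whole, and TPM, scaled by the authors for effective length to the same sum in every library. Members and lists were chosen with earlier results of these data known.

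Estimated counts were rounded and tested with edgeR 4.0.16 (R 4.3.3), with TMM scaling, the robust quasi-likelihood test and p-values adjusted by Benjamini-Hochberg over all tested transcripts. BY-2H against BY-2 was fitted on 6 libraries, the BY-2H phases on 6, and the VBI comparisons with their interaction on 12. The script was tested on simulated data. In BY-2H against BY-2 it recovered 17% of simulated 2-fold and 78% of 4-fold changes. In exponential VBI-2 against VBI-0 it recovered 40% and 97%. A 2-fold change lies at the fold limit, so a member not called may still differ. For 7 S and T pairs the reads of both copies were replaced by their sum, and for NtABCB9c, a pair added after its values were seen, in a fit of its own. Every member above the filter was named with values of some groups, not always of all 7. Members called between lines were given with each library of that comparison, and members under the filter by count and range or by reads. RefSeq matches ignored the accession version, and 38 of 50 members matched 36 loci.

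Alternatives were median-of-ratios scaling, DESeq2 1.42.0, limma 3.58.1 on log2(TPM + 0.5) and log2(TPM + 1), 2 other filters on low values, an effective-length offset, the replicate number as a block, all 21 libraries in 1 fit and leaving out each library. No sequences are shown.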

Additional observations from a re-analysis of the deposited data

Results flagged for a closer look

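For 7 members the phase effect (stationary over exponential) differed between VBI-2 and VBI-0 by the interaction term of edgeR's quasi-likelihood test. The difference, VBI-2 minus VBI-0 on the log2 scale, was −0.89 for NtABCB15S, −0.71 for NtABCB19T (0000564g0140), −0.89 for NtABCB19T (0006318g0030), −0.54 for NtABCB1S and −2.09 for NtABCB2T (0000127g0140). It was 1.07 for NtABCB9cS and 0.66 for PILS1 (0000464g0020).

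Among the members called in both stationary line comparisons, the line effect of 2 had opposite signs in the Bright Yellow 2 and the Virginia Bright Italia pair in stationary phase, and the difference was not tested. NtPILS5bT was at −4.70 in BY-2H against BY-2 and at 3.78 in VBI-2 against VBI-0. NtABCB2T (0000127g0140) was at −6.91 in BY-2H against BY-2, a fitted value that depends on the prior count because BY-2H had no read, and at 1.27 in VBI-2 against VBI-0.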

How the results depend on the processing

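No called value changed sign. Of 2011 member values under other settings, 1929 kept their status as called or not called, 71 lost and 11 gained a call. With 1 library left out these numbers were 2296, 52 and 12 of 2360. The values that kept their status include members called in neither fit. In BY-2H against BY-2, 7 of 8 endomembrane and 4 of 7 ABCB calls were kept under every setting, in stationary VBI-2 against VBI-0 4 of 6 and 5 of 6, in exponential phase 3 of 7 and 7 of 9, and none of the phase or interaction calls. Limma on TPM called 11828 transcripts higher and 7450 lower in BY-2H against BY-2, where edgeR called 9585 and 10657.

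Limma with either pseudocount called 0 members by interaction (edgeR 6 ABCB and 1 endomembrane), 4 ABCB in BY-2H against BY-2 (edgeR 7), 0 ABCB by phase in VBI-0 and in VBI-2 (edgeR 1 each), and 1 endomembrane by phase in VBI-0 with 0.5 and 0 with 1 (edgeR 4). With a pseudocount of 1 it called 4 endomembrane transcripts in exponential VBI-2 against VBI-0 (edgeR 7). All 21 libraries in 1 fit gave 0 and 0 interaction calls and 0 ABCB phase calls in VBI-0. The effective-length offset gave 3 ABCB interaction calls and 2 endomembrane phase calls in VBI-0. DESeq2 gave 3 endomembrane interaction calls. The causes were not tested.

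Leaving out 1 library gave 7 to 9 ABCB and 7 to 8 endomembrane calls in BY-2H against BY-2, 8 to 9 and 5 to 7 in exponential and 5 to 6 and 6 to 7 in stationary VBI-2 against VBI-0, 0 to 1 and 1 to 4 by phase in VBI-0, 0 to 1 ABCB by phase in VBI-2, and 4 to 7 and 0 to 1 by interaction. The summed NtABCB1 in stationary VBI-2 against VBI-0 ranged from −1.05 to −0.92, and the summed NtABCB9c, a pair added after seeing the data, from 0.82 to 1.19.

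Same-numbered replicates did not deviate together (correlations of −0.09 to 0.12, own number best in 1 or 2 of 3 samples), so the numbers were not taken as pairing. With the replicate number as a block, 2 endomembrane transcripts were called by interaction, NtPILS5aS and NtPILS5aT (0.58 and 0.75), and PILS1 (0000464g0020), the 1 called without it, was lost (adjusted p = 0.0513). Read numbers limit members of few reads, such as NtPIN5S and PILS2 (0007384g0050).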
